A study of Mus musculus with 312 samples.

Results

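The chemokines of mammary basal cells were described here with 10 genes listed by symbol, 9 chemokines (Cxcl14, Cxcl1, Cxcl2, Cxcl12, Cxcl16, Ccl2, Ccl7, Ccl20 and Cx3cl1) and the cytokine Il6, out of 25136 genes used. All 10 were found in the count tables. The data were single-cell RNA-seq profiles of 312 cells captured on the Fluidigm C1, a microfluidic device that makes cDNA from 1 cell per site, taken from mammary tissue of FVB/NJ mice, an inbred wild-type strain. Of the cells, 112 were titled adult basal cells with the mark "(2)" (adult marked set), 125 adult basal cells without it (adult unmarked set) and 75 pregnancy basal cells. The labels give neither the meaning of the mark nor the age in weeks, the day of pregnancy, the number of mice or any agent or allele. Per the study's methods, epithelial cells were sorted after removal of cells bearing the blood and endothelial surface proteins CD45, CD31 and Ter119, and basal cells by high CD29 with CD24. The same methods name epithelial cells from pregnant mice, whereas the labels used here call the pregnancy cells basal. The study lists its retained pregnancy cells as total epithelium, in a number larger than the 75 titled here. Whether the 75 are part of that set is not given.

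A cell was retained when at least 50000 read pairs fell in at least 1000 genes, leaving aside mitochondrial and ribosomal protein genes. This kept 81 of 112 adult marked, 58 of 125 adult unmarked and 71 of 75 pregnancy cells, with medians of 174910, 101320 and 230645 assigned read pairs. The median mitochondrial share of reads was 9.65%, 15.6% and 18.4%. The label of basal cell was checked against 11 core basal genes, such as the keratins Krt5 and Krt14 and the smooth muscle genes of these contractile cells: 78 of 81, 53 of 58 and 70 of 71 cells had at least 6 of them at 100 counts per 1000000 (CPM). Cells of a set are not replicate animals, so each set counted as 1 sample and no test between sets was possible. Differences are therefore given as ratios of mean CPM with the spread over cells, and stage, mouse, sort and capture run cannot be told apart.

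Chemokines are small secreted proteins that draw leukocytes along a concentration gradient by binding receptors coupled to G proteins. Some are made steadily by epithelium and stroma, among them Cxcl14 and Cxcl12. Others are induced within hours by inflammatory signals through the transcription factor NF-kB, among them the neutrophil attractants Cxcl1 and Cxcl2, the monocyte attractants Ccl2 and Ccl7, and Ccl20, which attracts cells that carry the receptor Ccr6. Il6 is a cytokine induced by the same route. Cxcl16 and Cx3cl1 differ in being made as membrane proteins that are shed by the proteases Adam10 and Adam17. In the mammary duct, basal cells are the contractile cells on the outside and lie next to the stroma in which leukocytes move.

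The 6 inducible members are Cxcl1, Cxcl2, Ccl2, Ccl7, Ccl20 and Il6. A promoter sequence could be searched for 4 of them, Cxcl1, Cxcl2, Ccl20 and Il6, and these 4 carry letters of the kind NF-kB binds. They are printed as background to the counts of joint detection within cells, given further on. Those counts also rest on Ccl2 and Ccl7, whose promoters could not be searched. RefSeq promoter sequences for build GRCm38.p6 were matched for 7 of the 10 members (Cxcl14, Cxcl1, Cxcl2, Cxcl12, Ccl20, Cx3cl1 and Il6). Cxcl16, Ccl2 and Ccl7 had no entry. The motif GGGNNTTTCC was searched on both strands in the 250 bases before the start site. It was found in 4 of the 7 members, namely Cxcl1, Cxcl2, Ccl20 and Il6, and in 464 of all 32851 promoters (1.41%). The last 120 bases before the start are shown 5′ to 3′ in the direction of the gene for these 4 and for Cxcl12, which had no match, with each match in capitals. A match with its opposite strand reads in reverse complement.
Cxcl1 (chr5:90891125-90891244, plus strand): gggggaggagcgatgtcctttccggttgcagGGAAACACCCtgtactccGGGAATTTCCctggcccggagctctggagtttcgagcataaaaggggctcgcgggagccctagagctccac
Cxcl2 (chr5:90903779-90903898, plus strand): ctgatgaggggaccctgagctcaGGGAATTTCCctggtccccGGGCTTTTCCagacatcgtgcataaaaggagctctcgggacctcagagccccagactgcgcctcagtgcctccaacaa
Ccl20 (chr1:83116646-83116765, plus strand): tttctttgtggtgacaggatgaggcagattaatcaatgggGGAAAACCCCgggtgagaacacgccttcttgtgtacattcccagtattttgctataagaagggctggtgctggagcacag
Il6 (chr5:30012994-30013113, plus strand): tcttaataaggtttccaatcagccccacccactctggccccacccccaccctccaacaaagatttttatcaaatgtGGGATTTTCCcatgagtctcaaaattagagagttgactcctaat
Cxcl12 (chr6:117168415-117168534, plus strand): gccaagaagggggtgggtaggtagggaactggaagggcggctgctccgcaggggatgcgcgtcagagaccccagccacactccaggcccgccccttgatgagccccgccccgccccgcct
Cxcl1 held a match 71 to 62 bases before its start and another on the opposite strand 89 to 80 bases before it. Cxcl2 held its pair 97 to 88 and 78 to 69 bases before the start. The match of Ccl20 lay 80 to 71 bases before the start on the opposite strand, and that of Il6 lay 44 to 35 bases before it. The motif of the AP-1 factors, TGANTCA, was found in Il6 alone among the 7 promoters, 249 to 243 bases before the start, against 6.75% of all promoters. No letters of the first and second motif overlapped. A match of letters is no evidence of binding.

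Cxcl14, a chemokine made constitutively by epithelia such as the skin, was the member found in the most cells. It ran from 0 to 1807 CPM in adult marked cells with a median of 151.0 CPM, from 0 to 3964 CPM in adult unmarked cells with a median of 187.9 CPM, and from 0 to 804 CPM in pregnancy cells with a median of 89.7 CPM. Each set reached down to 0, and the highest cells were adult ones. At least 1 read was found in 80 of 81, 50 of 58 and 68 of 71 cells. Mean levels were 232.7 ± 292.5, 341 ± 571 and 126 ± 137 CPM (SD over cells). The pregnancy mean was lower than the adult marked mean by a log2 ratio of -0.84 and lower than the adult unmarked mean by -1.37, so it passed 2-fold against only the second set. No cell held more than 20.1% of a set's sum of Cxcl14. The gene lies at chr13:56288643-56296811 (GRCm38, as are all coordinates here).

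**Figure D1:**
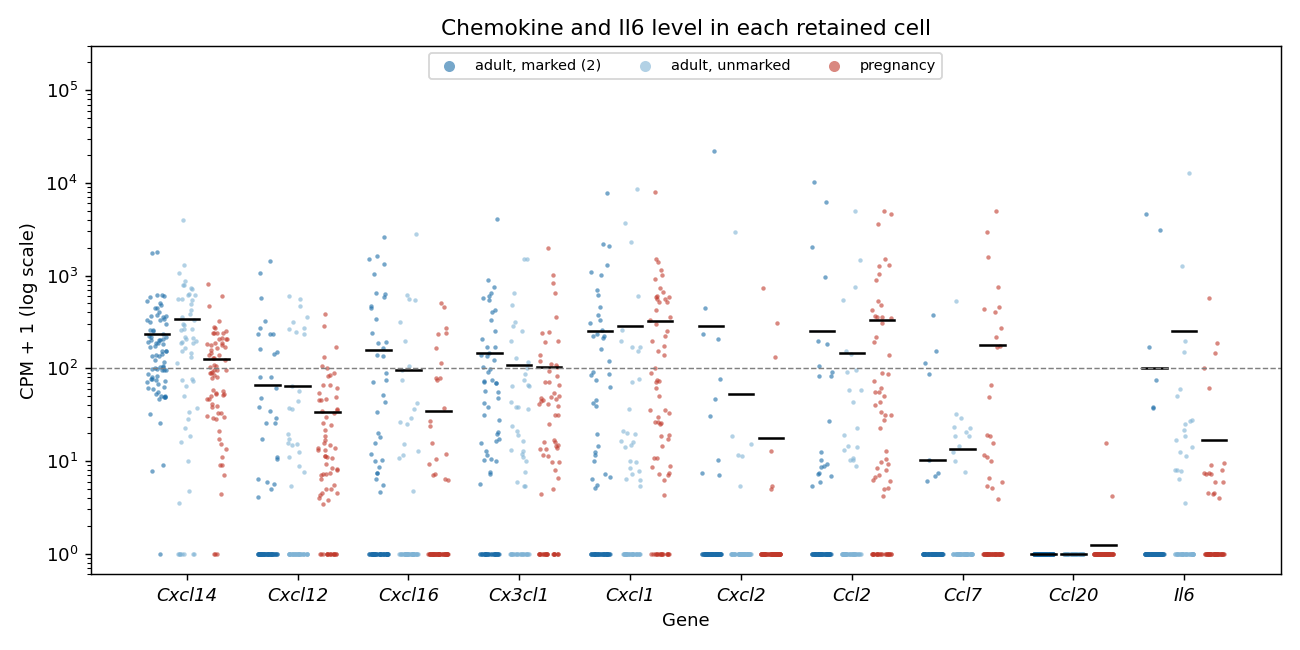
Level of each member in each retained cell, as CPM plus 1 on a log axis, for adult marked cells (dark blue, 81), adult unmarked cells (light blue, 58) and pregnancy cells (red, 71). Black bars are means over cells and the dashed line marks 100 CPM. Cxcl14 fills each set, while for Cxcl2, Ccl7 and Il6 most cells lie at 0. For Cxcl2 and Il6 1 or a few cells stand far above the rest, and for Ccl7 11 pregnancy cells reach 100 CPM.

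Cxcl12, which binds the receptor Cxcr4 and holds stem cells and leukocytes in their niches, was low per cell. Its mean was 65.2 ± 212 CPM in adult marked, 63.3 ± 143 CPM in adult unmarked and 32.8 ± 62.6 CPM in pregnancy cells, with maxima of 1438, 608 and 386 CPM. The log2 ratios of pregnancy were -0.81 against the adult marked set and -0.78 against the adult unmarked set, both short of 2-fold. With each cell thinned to 50000 reads, a read of Cxcl12 was found in 24 of 81, 19 of 58 and 38 of 71 cells, while 11, 9 and 6 cells reached 100 CPM. The share of cells with a read and the mean thus ran in opposite directions, and no order of the sets was read from them. The locus is chr6:117168535-117181368, and per length its mean was 9.11, 8.84 and 4.58 reads per kilobase and per 1000000 reads (RPKM).

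The membrane-bound members differed from each other. Cxcl16, which also acts as a scavenger receptor, averaged 157 ± 423 CPM in adult marked, 94.4 ± 383 CPM in adult unmarked and 33.2 ± 94.7 CPM in pregnancy cells, with a median of 0 in each set and maxima of 2590, 2779 and 502.5 CPM. Its log2 ratio of pregnancy was -1.95 against adult marked and -1.27 against adult unmarked cells, past 2-fold in both. Adult unmarked cell 190, which had 8 core basal genes and none of the immune markers at 100 CPM, held 50.8% of that set's sum. Without the highest cell of each set the ratio against adult unmarked cells was -0.65, short of 2-fold. The share of cells at 100 CPM was 17 of 81 (21.0%, 95% exact binomial interval 12.7 to 31.5), 7 of 58 (12.1%, 4.99 to 23.3) and 7 of 71 (9.86%, 4.06 to 19.3), and these intervals, which cover counting error only, overlapped.

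Cx3cl1, or fractalkine, attracts cells that carry Cx3cr1. It averaged 144 ± 484, 107 ± 293 and 103 ± 284 CPM, and its medians were 9.40, 7.81 and 13.7 CPM. Its log2 ratios of pregnancy were -0.45 and -0.04, smaller than the median size of the ratio over all genes tested in the same contrasts, 0.65 and 0.72. The highest cells were adult marked cell 69 at 4112 CPM, 35.2% of the set, and pregnancy cell 19 at 1960 CPM, 26.7% of its set. Of the proteases that shed both proteins, Adam17 averaged 20.1, 21.6 and 21.7 CPM, while Adam10 averaged 4.62, 19.6 and 55.7 CPM and was at least 2-fold higher in pregnancy against both adult sets. Pregnancy cell 24 held 77.3% of that set's Adam10. Without the highest cells the means were 2.80, 9.47 and 12.8 CPM, short of 2-fold against both adult sets with 10 CPM added.

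Cxcl1 was the most widely detected inducible member. It ranged from 0 to 7713, 8512 and 7922 CPM in the adult marked, adult unmarked and pregnancy sets, with medians of 0, 0 and 28.9 CPM. Mean levels were 249 ± 930, 283 ± 1238 and 319 ± 978 CPM, with log2 ratios of pregnancy of 0.35 and 0.17. The means therefore differed by less than the spread over cells. After thinning, a read was found in 29 of 81 cells (35.8%, 25.4 to 47.2), 20 of 58 cells (34.5%, 22.5 to 48.1) and 44 of 71 cells (62.0%, 49.7 to 73.2). The pregnancy interval did not overlap those of the adult sets. These intervals take cells as the unit and cover counting error only, so the gap is no test between the sets. Pregnancy cells also had more genes with a read in general, with medians after thinning of 2313, 2210 and 3220 genes per cell. The share of all genes with intervals apart in this way was not computed, so the gap is not read as particular to Cxcl1. At 100 CPM the shares were 23.5%, 15.5% and 35.2%, and the intervals overlapped. The gene lies at chr5:90891245-90893121 beside Cxcl2.

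Cxcl2, the near relative of Cxcl1 at chr5:90903899-90905938, had a median of 0 in every set and was found in few cells. At least 100 CPM was reached by 4 of 81 adult marked, 1 of 58 adult unmarked and 3 of 71 pregnancy cells. Means were 288 ± 2473, 51.5 ± 385 and 16.8 ± 94.2 CPM. The log2 ratios of pregnancy were -3.48 and -1.20, both past 2-fold, and the adult sets were 2-fold apart (-2.28, unmarked over marked).

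Single cells made these means. Adult marked cell 19 had 22263 CPM of Cxcl2 from 5596 reads and held 95.4% of its set's sum. The next cell of the set, at 449 CPM, was far below it. Cell 19 had all 8 immune markers and 3 of 11 core basal genes at 100 CPM, and a summed immune marker level of 52038 CPM, although the sort was set to remove CD45+ cells. In the other sets the immune markers summed to at most 255 and 294 CPM in any cell. Adult unmarked cell 231, with 7 core basal genes and no immune marker at 100 CPM, had 2930 CPM and held 98.1%, and pregnancy cell 27, with all 11 core basal genes, had 726 CPM and held 61.0%. Over cells with at least 6 core basal genes the means were 10.9, 56.4 and 17.0 CPM, and the ratio of pregnancy over adult marked cells turned to 0.37. Without the highest cell of each set the means were 13.3, 1.01 and 6.62 CPM.

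**Figure D2:**
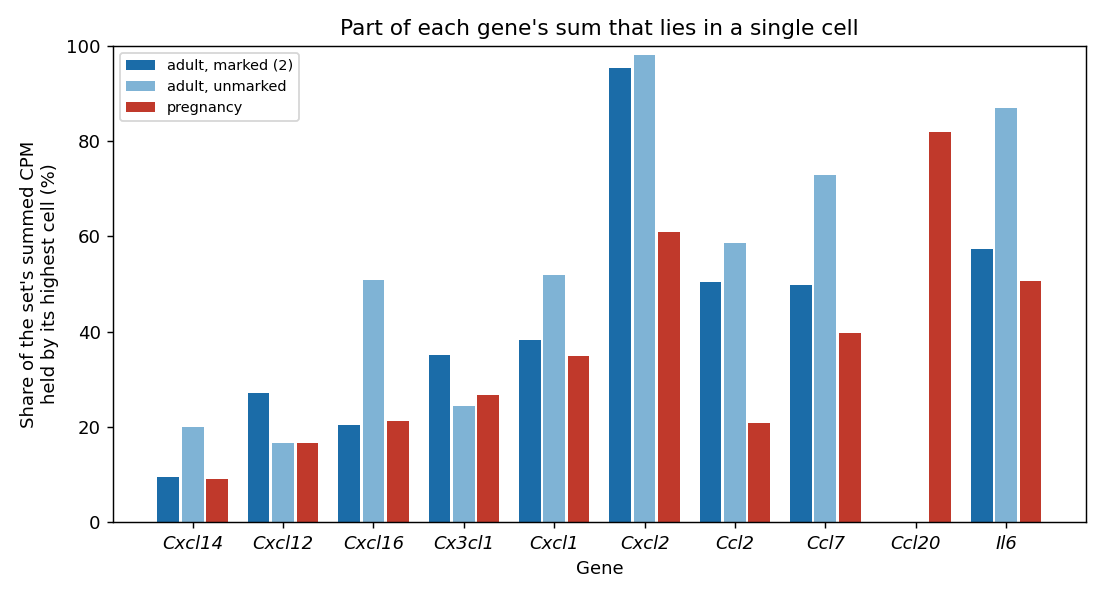
Share of the summed CPM of each member that its highest cell held, in percent, for adult marked (dark blue), adult unmarked (light blue) and pregnancy cells (red). The bars of Cxcl2 stand at 95.4%, 98.1% and 61.0%, those of Cxcl14 at 9.58%, 20.1% and 9.00%, and Ccl20 has no bar in the adult sets, where no read was found.

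Ccl2, the ligand of Ccr2 on monocytes, ranged from 0 to 10249, 4967 and 4914 CPM, with medians of 0, 0 and 8.82 CPM. It averaged 250 ± 1340, 146 ± 682 and 332 ± 921 CPM. The log2 ratio of pregnancy was 0.39 against adult marked and 1.13 against adult unmarked cells, so only the second passed 2-fold. Adult marked cell 69, with 10 core basal genes, held 50.5% of its set, and adult unmarked cell 138, with 8, held 58.6%. The highest pregnancy cell held 20.8%. Without the highest cell of each set the means were 125, 61.7 and 267 CPM and both ratios passed 2-fold (1.03 and 1.95). After thinning, a read was found in 12 of 81 (14.8%, 7.90 to 24.4), 14 of 58 (24.1%, 13.9 to 37.2) and 35 of 71 cells (49.3%, 37.2 to 61.4). At 100 CPM there were 7, 6 and 19 cells. As for Cxcl1, the shares after thinning stand beside a higher number of genes with a read per pregnancy cell in general.

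Ccl7, a chemokine for monocytes located at chr11:82045712-82047525, lies 8259 bases beyond Ccl2 at chr11:82035577-82037452. It had the largest rise among the members. The level was at most 376 CPM in adult marked, 532 CPM in adult unmarked and 5021 CPM in pregnancy cells, and the median was 0 in each set. Mean levels were 9.32 ± 47.2, 12.6 ± 69.8 and 178 ± 713 CPM, giving log2 ratios of 3.29 and 3.06. The sets overlapped, since 47 of 71 pregnancy cells had no read of it.

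At least 100 CPM of Ccl7 was reached by 3 of 81 adult marked cells (3.70%, 0.770 to 10.4), 1 of 58 adult unmarked cells (1.72%, 0.0436 to 9.24) and 11 of 71 pregnancy cells (15.5%, 8.00 to 26.0). Pregnancy cell 65, with 9 core basal genes, held 39.7% of its set, at 1370 reads. Without the highest cells the ratios were 3.02 and 3.14 with means of 4.74, 3.48 and 109 CPM. On the mean of log2 values the ratios were 0.89 and 0.76, short of 2-fold.

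Ccl2 and Ccl7 were often found in the same pregnancy cells. Of the 19 pregnancy cells with 100 CPM of Ccl2, 7 had as much Ccl7 (36.8%), against 4 of the 52 others (7.69%). In cell 65 they stood at 4914 and 5021 CPM, and in cell 9 at 4630 and 1568 CPM. Cell 15 ran the other way, with 2981 CPM of Ccl7 and 30.4 CPM of Ccl2. In adult unmarked cells the 1 cell with 100 CPM of Ccl7 was cell 138, which also had 4967 CPM of Ccl2, and none of the 3 such adult marked cells had 100 CPM of Ccl2. The longest run of bases that transcripts of the pair share exactly was 23, and it was 23 for Cxcl1 and Cxcl2.

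Stromal cells also make both genes, so fibroblast markers were read beside them. Of 8 such markers, cells with 3 or more at 100 CPM numbered 0 in adult marked, 3 in adult unmarked and 3 in pregnancy cells. The summed level of the 8 ran from 0 to 3262, 0 to 39480 and 55.2 to 5782 CPM, with medians of 4.22, 28.8 and 562 CPM. The pregnancy sum was mostly decorin, Dcn, which had a read in 71 of 71 cells and a mean of 1113 CPM against 107 and 677 CPM. The collagen genes Col1a1, Col1a2 and Col3a1 had a median of 0 in each set. Their means in pregnancy, 9.37, 1.94 and 22.8 CPM, lay above those of adult marked cells (1.59, 0.387 and 3.5 CPM). They lay below those of adult unmarked cells (26.3, 133.5 and 122 CPM). A read of each was found in 17, 12 and 27 of 71 pregnancy, 4, 3 and 6 of 81 adult marked and 9, 10 and 14 of 58 adult unmarked cells. Lum and Dpt had no read in adult marked cells and a read in 3 pregnancy cells each. Within pregnancy the median sum was 1934 CPM in the 11 cells with Ccl7 at 100 CPM and 496.5 CPM in the other 60. Without the cells with 3 or more such markers, the ratios of Ccl7 were 3.26 and 3.03 and those of Ccl2 0.43 and 1.37. That step left out only 1 of the 11 pregnancy cells with Ccl7 at 100 CPM and 1 of the 19 with Ccl2. Cells 65, 9 and 15 stayed in, with marker sums of 2902, 2707 and 3133 CPM. It could therefore hardly change the ratios, and no conclusion on the source is drawn. The part of RNA of Dcn and the other fibroblast genes in the result was not tested.

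Ccl20 (chr1:83116766-83119167) was not detectable in adult cells at this depth. No read was found in any of 81 adult marked or 58 adult unmarked cells, which allows a share of cells with a read of up to 3.70% and 5.17%. In pregnancy 3 reads were found, 2 in cell 37 and 1 in cell 17. It was below the mean of 10 CPM required for a comparison.

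Il6 (chr5:30013114-30019975) was found in few cells and, as with Cxcl2, its means rested on single cells. Adult marked cells ran from 0 to 4575 CPM, adult unmarked cells from 0 to 12676 CPM and pregnancy cells from 0 to 578 CPM, with a median of 0 in each. Means were 98.5 ± 609, 251.5 ± 1668 and 16.0 ± 74.1 CPM, and the log2 ratios of pregnancy were -2.06 and -3.33. The adult sets were 2-fold apart, at 1.27 (unmarked over marked). Cells at 100 CPM numbered 3 of 81, 4 of 58 and 3 of 71.

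The highest Il6 cell was adult unmarked cell 120, which held 86.9% of its set in 54041 assigned reads, had a mitochondrial share of 79.5% and 6 core basal genes, and was also that set's highest cell for Cxcl1 at 8512 CPM. Adult marked cells 90 and 100 stood at 4575 and 3085 CPM and had 7 and 5 core basal genes. Without the highest cell of each set the means were 42.5, 33.6 and 8.02 CPM and the ratios -1.54 and -1.27. Without the 2 highest cells they were 0.14 and -0.48, so the lower level in pregnancy rested on those cells. After thinning, a read was found in 7.41%, 25.9% and 12.7% of cells. Of the receptor chain shared by Il6-type cytokines, Il6st, the means were 212, 142 and 215 CPM, and of Il6ra 16.3, 2.92 and 5.92 CPM.

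Across the 10 members, 9 reached a mean of 10 CPM in at least 1 set. Of these, 1 (Ccl7) was at least 2-fold higher in pregnancy than in both adult sets, where 9.26% of the 9882 genes tested were. A further 3 (Cxcl2, Cxcl16 and Il6) were at least 2-fold lower, where 4.44% of all genes were. Between the adult sets 2 of 9 (Cxcl2 and Il6) were 2-fold apart, against 33.3% of all genes, so 2 sets of one stage differed this much in a large part of the genes. The median log2 ratio of pregnancy over the 9 was -0.81 against adult marked and -0.78 against adult unmarked cells, beside 0.04 and 0.09 over all genes tested. With a single high cell behind several of these means, the counts describe these cells. Leaving out the highest cell of each gene in each set gave 2 higher (Ccl2 and Ccl7) and 1 lower (Il6), beside 10.3% and 3.04% of 7661 genes.

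**Figure D3:**
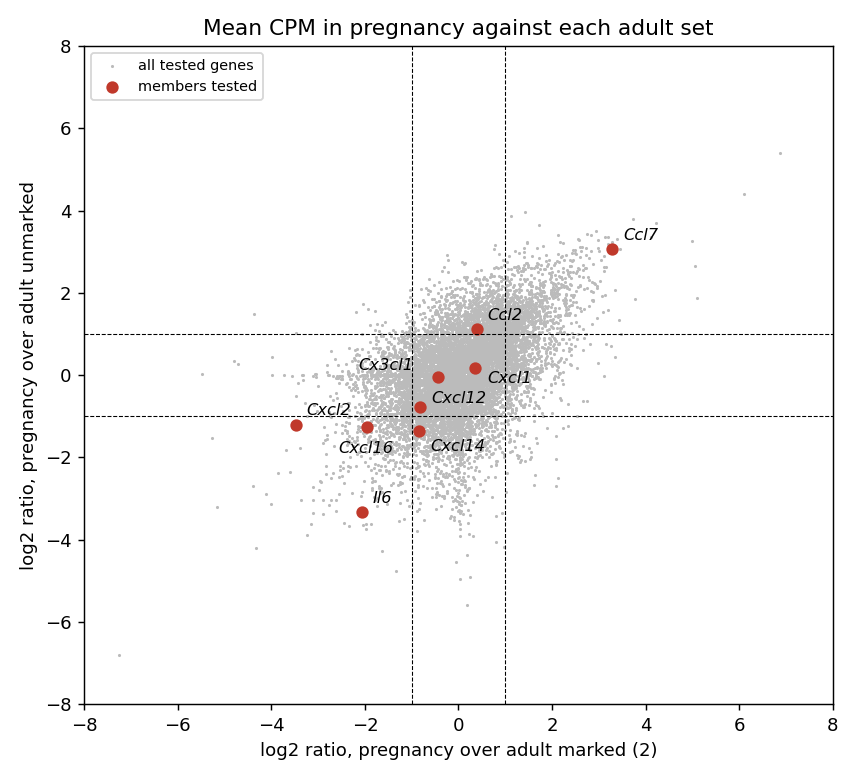
Log2 ratio of the means, pregnancy over adult marked cells (horizontal) and over adult unmarked cells (vertical), with 10 CPM added, for 9882 genes (grey) and the 9 members tested (red). Dashed lines mark 2-fold: Ccl7 lies past both on the high side (3.29 and 3.06), and Il6, Cxcl2 and Cxcl16 past both on the low side.

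Per length of transcript, the order of mean levels differed between the sets. In adult marked cells it was led by Ccl2 (311 RPKM), Cxcl2 (266 RPKM) and Cxcl1 (261 RPKM), in adult unmarked cells by Cxcl1 (296 RPKM), Il6 (231 RPKM) and Cxcl14 (186 RPKM), and in pregnancy by Ccl2 (412 RPKM), Cxcl1 (334 RPKM) and Ccl7 (223 RPKM). Cxcl14 followed at 127 and 68.8 RPKM in the adult marked and pregnancy sets. Neighbours in each order differed by less than the spread over cells, for which the SD exceeded the mean of every detected member in every set. By median, Cxcl14 was first in each set, at 82.6, 102.9 and 49.1 RPKM.

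The inducible members (Cxcl1, Cxcl2, Ccl2, Ccl7, Ccl20 and Il6) were next counted within cells. At least 2 of the 6 stood at 100 CPM in 7 of 81 adult marked cells (8.64%, 3.54 to 17.0), 5 of 58 adult unmarked cells (8.62%, 2.86 to 19.0) and 13 of 71 pregnancy cells (18.3%, 10.1 to 29.3). The intervals overlapped. The adult marked cells include cell 19, with its 8 immune markers and 3 core basal genes, and cell 100 with 5 core basal genes, and in cells with at least 6 core basal genes the shares were 6.41%, 9.43% and 18.6%. Adult unmarked cell 155 had 4 and pregnancy cell 62 had 5 of the 8 fibroblast markers at 100 CPM. With each cell thinned and 1 read required, the shares were 13.6%, 32.8% and 45.1%, so the adult sets, equal at 100 CPM, stood apart. Thinned pregnancy cells had more genes with a read in general, and the part of this in the shares was not tested. At 100 CPM no cell had more than 3. None of the 6 stood at 100 CPM in 53, 43 and 28 cells. Cxcl1 was at 100 CPM in all 12 adult cells with 2 or more, joined by Ccl2 in 5, Il6 in 5, Ccl7 in 2 and Cxcl2 in 2. In the 13 pregnancy cells Ccl2 was at 100 CPM in 12, Cxcl1 in 9 and Ccl7 in 8.

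The combinations differed from cell to cell. Adult marked cell 69 paired 10249 CPM of Ccl2 with 2062 CPM of Cxcl1 and 4112 CPM of Cx3cl1. Adult unmarked cell 120 paired 12676 CPM of Il6 with 8512 CPM of Cxcl1 and no Ccl2. Pregnancy cell 36 had 7922 CPM of Cxcl1 with 367 CPM of Ccl2 at a mitochondrial share of 51.9%. The 5 adult unmarked cells were shallow, with a median of 56820 reads against 108057 in the 43 cells with no inducible member and a mitochondrial median of 37.6% against 14.3%. The 13 pregnancy cells were near the 28 without in both, at 232854 against 237283 reads and 20.0% against 19.6%. The part of depth and mitochondrial share in the result was not tested.

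**Figure D4:**
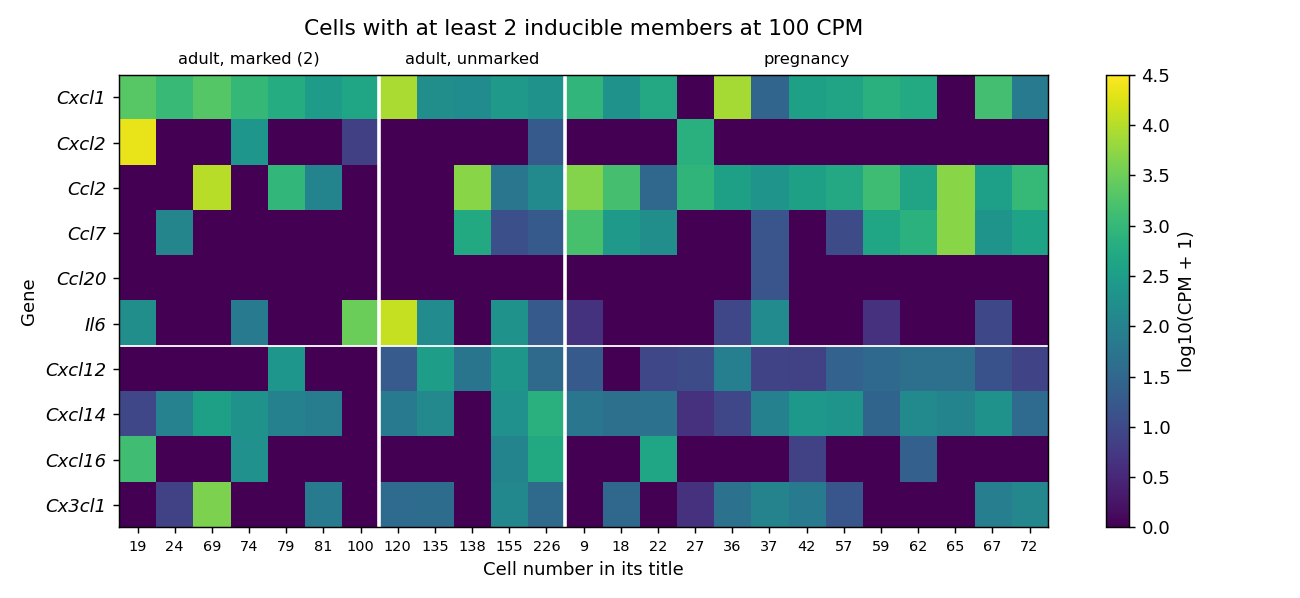
Level of the 10 members, as log10(CPM + 1) in colour, in the 25 cells with at least 2 inducible members at 100 CPM (7 adult marked, 5 adult unmarked, 13 pregnancy). Columns are cells by number and the white line parts the 6 inducible members from the other 4: Cxcl1 is high in the adult columns, and Ccl2 in 12 of the 13 pregnancy columns.

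Genes of NF-kB feedback and its targets were read in the same cells from a list of 20. Cells with 2 or more inducible members had a median of 6, 6 and 5 of these genes at 100 CPM in the adult marked, adult unmarked and pregnancy sets, against 4, 3 and 3 in cells with none. For the 13 immediate early genes, taken up below, the medians were 7, 7 and 9 against 7, 5 and 8. A higher count was thus not confined to the NF-kB list in the adult unmarked and pregnancy sets. The inhibitor Nfkbia had medians of 169, 410 and 564 CPM in the first kind and 383, 115 and 118 CPM in the second, so it ran the other way in adult marked cells. The adhesion gene Icam1 stood at 477.5, 458 and 550 CPM against 576, 68.9 and 400 CPM, and likewise ran the other way in adult marked cells. The interferon-response factor Irf1 stood at 595, 158 and 631 CPM against 111, 19.7 and 395 CPM, and was higher in the first kind in all 3 sets, as was the subunit Nfkb1 (59.7, 17.6 and 34.9 against 20.4, 10.0 and 10.8 CPM). Ier3, a survival gene, was lower in the first kind in both adult sets (36.1 and 130 against 173 and 232 CPM) and higher in pregnancy (215 against 58.6 CPM). Csf1, a growth factor of macrophages, was higher in both adult sets (23.9 and 52.8 against 5.03 and 11.9 CPM) and lower in pregnancy (7.62 against 18.3 CPM). The adult marked medians include cells 19 and 100. In adult unmarked cells the first kind is 5 cells with a median of 56820 reads. There the 17.6 CPM of Nfkb1 and 52.8 CPM of Csf1 are very few reads in 1 cell. No direction is read from these 2 medians. These genes and the inducible members come from the same cells and reads, and the numbers are a description.

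Between the sets, 17 of the 20 genes of that list were tested. Nfkbie, an inhibitor of NF-kB, was at least 2-fold lower in pregnancy at 62.2, 38.6 and 8.31 CPM (log2 ratios -1.98 and -1.41). Adult unmarked cell 231 held 70.3% of its set, and without the highest cells the means of Nfkbie were 45.9, 11.7 and 4.72 CPM, no longer 2-fold apart against adult unmarked cells with 10 CPM added. Bcl3, a nuclear cofactor of NF-kB, was also lower, at 69.2, 53.9 and 18.5 CPM (-1.47 and -1.16). So 2 of the 17 were lower and none was higher, where 4.44% and 9.26% of all genes tested were. The list's median ratios were -0.86 and -0.24. Of 13 immediate early genes, which rise within minutes of a stimulus or of cell handling, Jun was higher in pregnancy at 335, 280.5 and 793 CPM and Dusp1, a phosphatase, lower at 425, 216 and 58.7 CPM. The remaining 11 did not pass 2-fold in one direction against both sets. The same shares of all genes stand beside these counts, and with lists this short no result about either list is read from them.

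Of 10 other CXC chemokines 3 were tested and 1 was higher in pregnancy, Cxcl10, an interferon-induced attractant of T cells, at 7.49, 4.80 and 47.8 CPM (log2 ratios 1.73 and 1.97) with 5 of 71 pregnancy cells at 100 CPM. Of 16 other CC chemokines 4 were tested and none passed 2-fold against both adult sets. Over all genes tested 9.26% were higher and 4.44% lower. Ccl3 (123 CPM), Ccl4 (442 CPM) and Ccl5 (19.3 CPM) had their adult marked means from cell 19 to 98.1%, 99.1% and 100.0%, and that cell also held 99.0% of Il1b and 98.6% of Il1a. Ccl11, an eosinophil attractant, averaged 540 CPM in adult unmarked cells, 72.3% of it in cell 157, the cell with the highest fibroblast marker sum of 39480 CPM, against 0.0761 and 1.46 CPM in the other sets.

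Of 24 receptor genes 5 were tested and 1 was higher in pregnancy, where 9.26% of all genes tested were. It was Ackr4, a scavenger of CC chemokines, at 4.43, 7.60 and 28.6 CPM (1.42 and 1.13). Ackr3, the scavenging receptor of Cxcl12, averaged 150, 266 and 138 CPM and was at 100 CPM in 17, 14 and 19 cells. Cxcr4, the signalling receptor of Cxcl12, averaged 2.10, 5.91 and 18.1 CPM. Ccr2, the receptor of Ccl2 and Ccl7, had no read in adult cells and a mean of 0.102 CPM in pregnancy. Cxcr2, the receptor of Cxcl1 and Cxcl2, had a mean of 0.476 CPM in adult unmarked cells and no read in the other sets.

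The marker lists were compared in the same way, beside 9.26% of all genes higher and 4.44% lower. Of 11 core basal genes, all tested, the basal transcription factor Trp63 (91.1, 83.7 and 267 CPM) and the myosin light chain kinase Mylk (3488, 2089 and 7709 CPM) were at least 2-fold higher in pregnancy and the keratin Krt17 (4591, 3486 and 580 CPM) lower. Of 6 pan-luminal genes tested, the keratin Krt19 was lower (37.8, 62.5 and 4.71 CPM). Of 6 luminal progenitor genes tested, 3 were called: the casein Csn3 (13.7, 68.9 and 743 CPM) and transferrin, Trf (266, 246 and 750.5 CPM), were higher, with 73.2% of pregnancy Csn3 in cell 71. Cd14, a receptor also found on macrophages, was lower at 384, 19.3 and 0.183 CPM, and cell 19 held 97.8% of its adult marked sum. Of 8 fibroblast genes Pdgfra (0.0569, 12.0 and 60.0 CPM) was higher, 91.8% of it in pregnancy cell 6, and of 3 pericyte genes Cspg4 (0, 2.52 and 39.2 CPM) was higher. None of the immune, endothelial, mature luminal or Schwann cell genes tested (7, 4, 4 and 4) passed in either direction.

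Genes whose level ran most like a member's across cells were sought for the 4 members with a read in at least 25% of thinned cells of each set, among 2676 genes. By the median of Spearman's rho over the 3 sets (81, 58 and 71 cells), the nearest were Fos (0.38), Ltbp2 (0.34) and Kdm2a (0.33) for Cxcl14, and Tshz2 (0.43), Ube2r2 (0.38) and Ndufaf2 (0.38) for Cxcl1. For Cxcl12 they were Upf2 (0.43), Ankrd44 (0.42) and Zc3h13 (0.39), and for Cx3cl1 Pbxip1 (0.33), Arid5a (0.33) and Cacybp (0.32). These correlations are weak and uneven between the sets: in at least 1 set rho was -0.02 for Fos, 0.04 for Ltbp2, -0.05 for Kdm2a, 0.06 for Tshz2, -0.19 for Ube2r2, 0.02 for Ankrd44, -0.02 for Arid5a and 0.02 for Cacybp. They rest on sparse counts of the same cells and are given as a description.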

How the data were processed

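The deposited files hold, per the labels and the study's methods, counts of read pairs per Entrez gene for each cell, which the authors made from Fluidigm C1 and Nextera XT libraries with Subread 1.5.0 and featureCounts on mm10 with the built-in RefSeq annotation. No molecular identifiers were used, so reads are not independent molecules, and intervals cover counting error only. The use of strand is not given in the sources used here. The table of the whole series repeated the counts of the cells and was not used. Of 27179 gene IDs, 1904 without a symbol (1.66% of reads), 15 mitochondrial and 124 ribosomal protein genes were set aside, as in the study's methods, which left 25136. CPM were computed over these, and 210 of 312 cells passed the study's minimum of 50000 read pairs and 1000 genes.

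Means over cells were compared as log2 ratios with 10 CPM added, a scale that understates changes of low genes. A gene was tested when its mean was at least 10 CPM in 1 set and called when the ratio was 1 or more in one direction against both adult sets. Levels between genes were compared per kilobase of the deposited exon length of the gene. Shares of cells have 95% exact (Clopper-Pearson) intervals, and a count of 0 was given a floor of 3 cells. For depth, cells were thinned to 50000 reads. The members and gene lists were chosen with earlier results of these data known. Named were the members, the called genes of each list (up to 6), 3 like genes per eligible member and cells holding 25% or more of a member's sum. The cells, genes and values named beside these were chosen after their values were seen. Settings were varied as given in the closing section, with scaling by the trimmed mean of M values from edgeR 4.0.16 (R 4.3.3). Other steps used Python 3.11.15, numpy 2.4.6, pandas 2.3.3, scipy 1.17.1 and matplotlib 3.10.9. The ratios and 2-fold calls were tried on simulated cells that varied by counting alone. That trial does not cover means held by single cells, nor the other steps.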

Additional observations from a re-analysis of the deposited data

Results flagged for a closer look

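Reads of the 10 genes were also present in the cells that the depth filter left out and that no comparison used. They made up 299 of 452520 assigned reads (0.0661%) in 31 adult marked cells, 679 of 719223 (0.0944%) in 67 adult unmarked cells and 128 of 93619 (0.137%) in 4 pregnancy cells. In the retained cells the shares were 0.147%, 0.101% and 0.107%. Among the left-out adult marked cells 170 of the reads were of Cxcl12, 0.0376% of assigned reads against 0.00648% in the retained cells. Among the left-out adult unmarked cells 290 of the reads were of Ccl2 and 196 of Cxcl14, and among the left-out pregnancy cells 69 were of Ccl2 and 18 of Ccl7. None was of Ccl20.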

How the results depend on the processing

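Ccl7 remained at least 2-fold higher in pregnancy in all settings but the mean of log2 values, in which Ccl2 alone was called. Of the 12 member ratios of 1 or more in size, 83 of 120 recomputed values stayed at 1 or more in the same direction. A filter of 100000 read pairs and 1500 genes a cell gave 0 members lower and 4 apart between the adult sets. Of 9758 genes 3.98% were lower and 41.2% apart in that setting. The ratios of pregnancy over adult unmarked cells reversed for Cxcl2 (1.35) and Il6 (0.60), and Il6 reversed between the adult sets (-1.68). With 100 CPM added, 0 were lower and 1 was apart, and of all genes 67, 40 and 253 were higher, lower and apart, against 915, 439 and 3288. With 1 CPM added these were 1392, 977 and 4755. The mean of log2 values gave 0 lower and 0 apart (552, 32 and 142 of all genes), with reversed ratios of 0.01 for Cxcl2 over adult unmarked and 0.05 for Il6 over adult marked cells. Summed reads left 1 apart and 2 lower (Cxcl16 and Il6), beside 33.8% and 4.61% of 9821 genes. The ratio of Cxcl2 over adult unmarked cells was then -0.18. Without the highest cell of each gene, 2 members were higher and 1 lower, 233 and 1900 of all genes were lower and apart, Cxcl2 over adult unmarked cells was 0.60 and Il6 between the adult sets -0.27. Without the 2 highest cells, added after seeing the data, 2 were higher, 0 lower and 1 apart. Of 6545 genes 765, 177 and 1535 were higher, lower and apart. Cxcl2 over adult unmarked cells was 0.19 and Il6 over adult marked cells 0.14. In cells with 6 core basal genes, Cxcl2 reversed over adult marked cells (0.37) and between the adult sets (1.67). A minimum mean of 50 CPM left 458 genes higher and 1761 apart. Scaling by the trimmed mean of M values shifted the median ratio of all genes by at most 0.05 (log2) and changed no member's call. The share of cells with 2 inducible members was 16.0% (adult marked), 29.3% (adult unmarked) and 43.7% (pregnancy) at 10 CPM, 13.6%, 32.8% and 45.1% at 1 read after thinning, 3.70%, 3.45% and 7.04% at 500 CPM, and 0 of the 29 deeper adult unmarked cells. The causes of these changes were not tested. Some settings left out cells, genes or reads, and others changed only the amount added, the averaging or the scaling. No paired analysis was possible because cell numbers only name cells and each set is 1 sample. At these depths a gene in few cells, such as Ccl20, could not be compared.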
